A study of Mus musculus with 2 samples.

Results

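The aminoacyl-tRNA synthetase genes of the mouse were described in kidney resident macrophages, with most room given to Lars2, which encodes the leucyl-tRNA synthetase of mitochondria. The set held 37 of the 48795 genes in the count table, found by gene symbol, of which 21 encode cytosolic and 16 mitochondrial enzymes. It was chosen for the high ratio of Lars2 between the 2 libraries, so that ratio and the other ratios of the same contrast are given as descriptions and without a test. All 37 genes had reads in both libraries and passed the minimum level for comparison, 1 CPM in the higher library.

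R2a was the library of CD11c+ and R2b that of CD11c- resident macrophages, sorted by flow cytometry from kidneys of wild-type C57BL/6 mice aged 8 weeks. CD11c is the surface protein encoded by Itgax. RNA of 6 to 8 mice was pooled for each library, and each population had 1 library, which leaves no measure of the variation among animals and no test. R2a held 11811923 reads on genes and R2b 23915896. The 9 macrophage markers, Csf1r, Adgre1 and C1qa among them, had reads in both libraries, between 47.0 and 3400 CPM each and 9950 against 11154 CPM in sum. Itgax stood at 367 CPM in R2a and 48.9 in R2b. RNA of other kidney cells was present in both libraries. The 5 proximal tubule markers summed to 1921 and 2065 CPM and the 4 distal nephron markers to 891 and 1030. The sums in R2a and R2b were 24.6 and 11.3 for 3 podocyte markers, 43.4 and 30.9 for 4 endothelial markers, 52.4 and 32.8 for 4 dendritic cell markers, and 8.24 and 19.8 for 4 fibroblast markers. The sums were 28.5 and 35.3 CPM for 4 B cell markers, 4.53 and 6.19 for 3 erythroid markers, 0.577 and 2.19 for 4 T and NK cell markers and 0.165 and 0.730 for 4 neutrophil markers, of which Ly6g was at 0 in both libraries. The part of these cells in the ratios below was not tested, and fewer cells of a type and less RNA per cell cannot be told apart in such libraries.

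Aminoacyl-tRNA synthetases attach each amino acid to its transfer RNA, the step at which the genetic code is read into amino acids. Cytosolic enzymes supply the ribosomes of the cytoplasm, and a group of them is held in a multisynthetase complex by scaffold proteins. Mitochondrial enzymes are made from nuclear genes, imported, and charge the tRNAs that the mitochondrial genome encodes for the synthesis of respiratory chain subunits. Several cytosolic synthetase genes are known targets of ATF4, the transcription factor of the amino acid response.

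Lars2 (ENSMUSG00000035202.7, chr9:123366927-123462666 on the plus strand of GRCm38) was covered by 1773 reads in R2a and by 589 in R2b. Its level was 146 CPM in R2a, with an exact 95% Poisson interval of 139 to 153, and 25.3 CPM in R2b, with an interval of 23.3 to 27.4. CPM relate the reads of a gene to a library total scaled by the TMM method, and all intervals cover counting error only. The 2 intervals were far apart, and the ratio was 5.77 in favour of R2a, with an exact 95% interval of 5.25 to 6.35, or 2.51 on the log2 scale after 0.5 CPM was added to both levels. Of the 15603 genes compared, 14 had a higher log2 ratio, 9 of them protein-coding. Among the 3506 genes with at least 50 CPM in the higher library, Lars2 had the fifth highest ratio. Lars2 reached 50 CPM in R2a only and was chosen for this ratio, so nothing is read from the rank. Lars, the cytosolic leucyl enzyme, stood at 47.6 CPM (578 reads) in R2a and 44.3 CPM (1032 reads) in R2b, a ratio of 1.07 with an interval of 0.968 to 1.19.

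The 250 bases before the RefSeq start of Lars2 are shown for the gene on which the contrast turned, at chr9:123366677-123366926 on the plus strand of GRCm38.p6, and capitals mark no motif here because none of the 4 motifs described further on lay in them.
Lars2: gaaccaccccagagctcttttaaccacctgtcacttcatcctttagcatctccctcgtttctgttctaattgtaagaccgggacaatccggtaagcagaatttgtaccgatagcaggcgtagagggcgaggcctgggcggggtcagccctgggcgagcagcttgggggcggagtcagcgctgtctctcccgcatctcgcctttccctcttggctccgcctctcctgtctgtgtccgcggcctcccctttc
The share of G and C in this stretch was 59.2%.

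Calls required a log2 ratio of 1 or more in either direction, a level of at least 1 CPM in the higher library and an interval of the ratio that excluded 1. By this rule 1 of the 37 synthetase genes, Lars2, was called higher and 0 were called lower, beside 1.93% of all genes compared called higher and 1.84% called lower. Since the set was chosen on this contrast, nothing is read from these shares. The other 36 genes lay between -0.52 and 0.53 on the log2 scale, and 29 of them were within 0.3 of 0. The median log2 ratio was 0.06 for all 37 and -0.01 for all genes compared, whose quartiles were -0.20 and 0.19. Of the 37, 23 were above 0 and 14 below. Rars, Iars, Fars2 and Eprs, all just below 0, were above it when the libraries were scaled by total counts, which made 27 above.

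**Figure D1:**
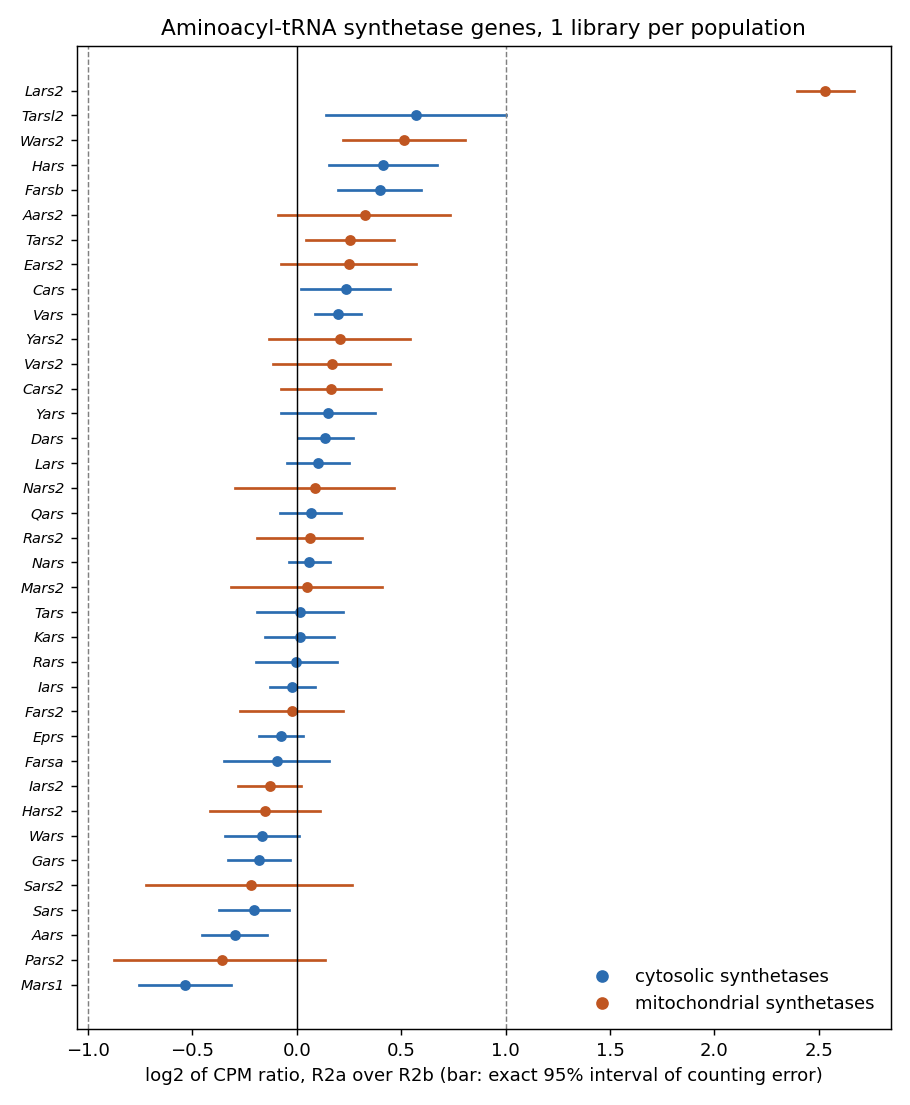
Log2 of the CPM ratio of R2a over R2b (horizontal axis, no value added) for each of the 37 synthetase genes, with bars for the exact 95% interval of counting error; blue marks cytosolic and orange mitochondrial enzymes, and dashed lines mark a log2 ratio of 1 in either direction. Lars2 stands apart at the top, and the points of the other 36 genes lie between the dashed lines.

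**Figure D2:**
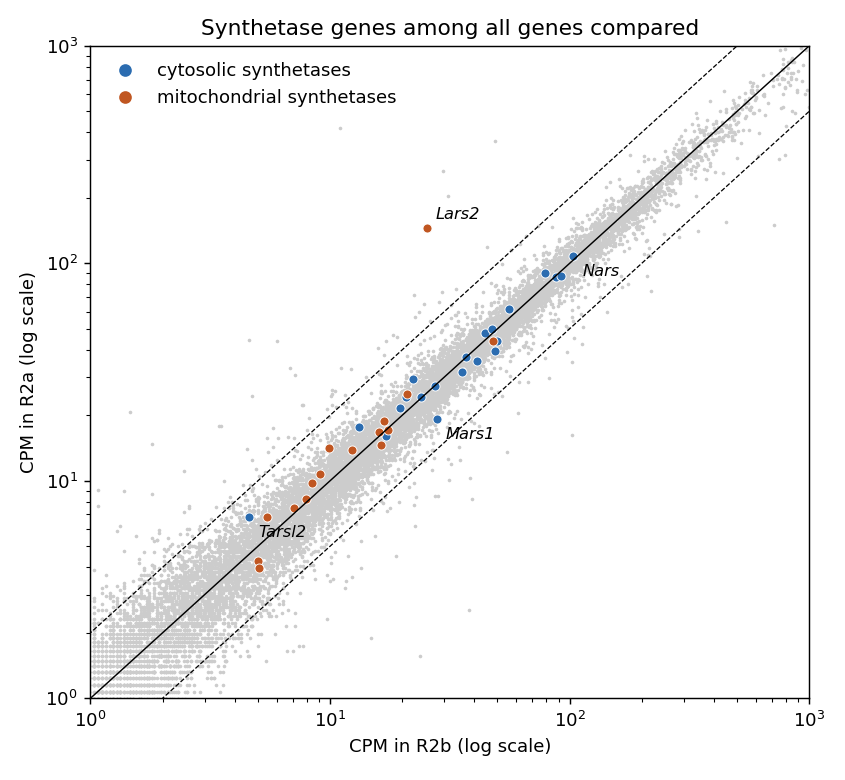
CPM in R2a against CPM in R2b on log scales for genes compared (grey) and the 37 synthetase genes (blue, cytosolic; orange, mitochondrial), with a solid line of equal level and dashed lines of a 2-fold difference. Lars2, at 146 and 25.3 CPM, is the synthetase gene outside the dashed lines.

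The plot of ratios shows how narrow the range was apart from Lars2, and the plot of levels among all genes shows that the other synthetase genes followed the line of equal level at every abundance. Of the 36 genes without Lars2, 12 had an interval that excluded a ratio of 1, 8 of them above and 4 below, beside 36.7% of all genes compared, 18.1% above and 18.6% below. Nothing is read from these shares. The 12 differences were all under 1.5-fold.

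The 21 cytosolic synthetase genes summed to 906 CPM in R2a and 899 CPM in R2b. None passed the rule of the call, and their median log2 ratio was 0.02. Tarsl2, which encodes a threonyl-tRNA synthetase-like protein, had the highest ratio among them, with 83 reads (6.84 CPM) in R2a and 107 reads (4.60 CPM) in R2b. Its ratio was 1.49, with an interval of 1.10 to 2.00. Tarsl2 shares 120 exon bases with Tm2d3 on the same strand, and Tm2d3 had a log2 ratio of -0.01.

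Hars, the cytosolic histidyl enzyme, stood at 17.6 CPM (214 reads) in R2a and 13.2 CPM (308 reads) in R2b, a ratio of 1.33 with an interval of 1.11 to 1.59. Its neighbour Hars2, the mitochondrial histidyl enzyme, shares 195 exon bases with it on the opposite strand and stood at 14.7 against 16.3 CPM. Whether counting used the strand is not stated in the labels, so reads in those bases cannot be assigned with certainty. Farsb encodes the beta subunit of the cytosolic phenylalanyl enzyme and had 29.2 CPM (355 reads) in R2a and 22.2 CPM (517 reads) in R2b, a ratio of 1.32 with an interval of 1.15 to 1.51. Farsa encodes the alpha subunit of the same enzyme and had 16.1 CPM in R2a and 17.1 CPM in R2b. The interval of Farsa ran from 0.785 to 1.11 and did not overlap that of Farsb. Farsb shares 248 exon bases with Sgpp2 on the opposite strand, and Sgpp2 had a log2 ratio of -0.21. Vars, the valyl enzyme, was among the most abundant of the set, with 90.6 CPM (1100 reads) in R2a and 79.0 CPM (1839 reads) in R2b, a ratio of 1.15 with an interval of 1.06 to 1.24.

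At the other end stood Mars1, the cytosolic methionyl enzyme, which also charges the initiator tRNA. Its 234 reads (19.3 CPM) in R2a against 649 reads (27.9 CPM) in R2b made it 1.45 times lower in R2a with an interval of 1.24 to 1.69. Mars1 shares 68 exon bases with Ddit3 on the opposite strand, and Ddit3 had 143 and 240 reads, a log2 ratio of 0.18. Aars, the alanyl enzyme, stood at 39.7 CPM (482 reads) in R2a and 48.8 CPM (1135 reads) in R2b, 1.23 times lower in R2a with an interval of 1.10 to 1.37. Of its exons, 1326 bases are shared with Exosc6 on the same strand, and Exosc6 was listed at 0 reads in both libraries. Reads that more than 1 gene could claim were left out of the gene counts, so this 0 is not read as a lack of Exosc6 RNA. Sars, the seryl enzyme, had 35.5 and 40.9 CPM, 1.15 times lower in R2a with an interval of 1.03 to 1.29. Gars, the glycyl enzyme of both cytosol and mitochondria, had 44.0 and 49.8 CPM, 1.13 times lower with an interval of 1.02 to 1.26. Mars1 thus had the widest gap of the cytosolic set in this direction, and it was under the 2-fold rule.

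The 8 enzymes of the multisynthetase complex (Eprs, Iars, Lars, Mars1, Qars, Rars, Kars and Dars) had a median log2 ratio of 0.01, and the 13 cytosolic enzymes outside it 0.06. Eprs, the joint glutamyl and prolyl enzyme, stood at 87.7 and 92.4 CPM, and Iars, the isoleucyl enzyme, at 86.5 and 87.7. Kars, the lysyl enzyme of both compartments, stood at 37.2 and 36.8 CPM. Of the 3 scaffold genes of the complex, 0 were called, with log2 ratios of 0.09 for Aimp1, 0.13 for Aimp2 and -0.04 for Eef1e1.

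The 16 mitochondrial synthetase genes summed to 362 CPM in R2a and 231 CPM in R2b. Lars2 made up 40.4% of the sum in R2a and 10.95% in R2b, and 92.4% of the gap between the sums. Without it the other 15 summed to 216 and 206 CPM, with a median log2 ratio of 0.08 and 0 called. Wars2, the tryptophanyl enzyme of mitochondria, had the next highest ratio, with 14.2 CPM (172 reads) in R2a and 9.93 CPM (231 reads) in R2b. Its ratio was 1.43 with an interval of 1.16 to 1.75. Aars2, the alanyl enzyme, had 6.84 and 5.46 CPM, and the interval of its ratio, 0.938 to 1.67, included 1.

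Pars2, the prolyl enzyme, was the lowest of the mitochondrial group in ratio, at 3.95 CPM (48 reads) in R2a and 5.07 CPM (118 reads) in R2b. Its interval, 0.546 to 1.10, included 1, so a difference was not detectable at this depth. Iars2, the isoleucyl enzyme, had the highest CPM of the mitochondrial synthetase genes in R2b before correction for length, with 43.7 CPM (531 reads) in R2a and 47.9 CPM (1114 reads) in R2b. It shares 2034 exon bases with Rab3gap2 on the opposite strand.

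To compare levels between genes, the CPM of a gene were divided by the length of its joined exons in kilobases. Bases shared with other genes, as in Aars and Iars2, stayed in that length, although reads in them may not have been counted. Nars, the asparaginyl enzyme, was first in both libraries, at 24.8 in R2a and 23.8 in R2b. In R2a it was followed by Iars at 16.4, Vars at 16.2, Gars at 14.1, Dars (aspartyl) at 14.1 and Lars2 at 13.2. The interval of Nars did not overlap that of Iars, while the intervals of neighbours from Iars to Lars2 overlapped. In R2b the order was Nars, Iars at 16.6, Gars at 15.97, Vars at 14.1 and Dars at 12.8, and Lars2 stood in place 28 at 2.28, between Cars2 at 2.32 and Vars2 at 2.27, from which its interval of 2.10 to 2.47 did not separate it.

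Lars2 was thus in place 6 of 37 per exon length in R2a. With the length of the longest transcript in place of joined exons it was in place 2 in R2a and place 20 in R2b. The lowest levels per joined exon length in R2a were those of Mars2 (methionyl, mitochondrial) at 0.729, Tarsl2 at 1.01, Nars2 (asparaginyl, mitochondrial) at 1.08, Pars2 at 1.28 and Sars2 (seryl, mitochondrial) at 1.29. In R2b they were those of Tarsl2 at 0.682, Mars2 at 0.704, Nars2 at 1.01, Aars2 at 1.15 and Sars2 at 1.505. The order of levels was nearly the same in both libraries, with a Spearman rho of 0.928 over the 37 genes and 0.987 over the 36 without Lars2. These are descriptions across genes, which share their libraries and lengths and are not replicates.

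**Figure D3:**
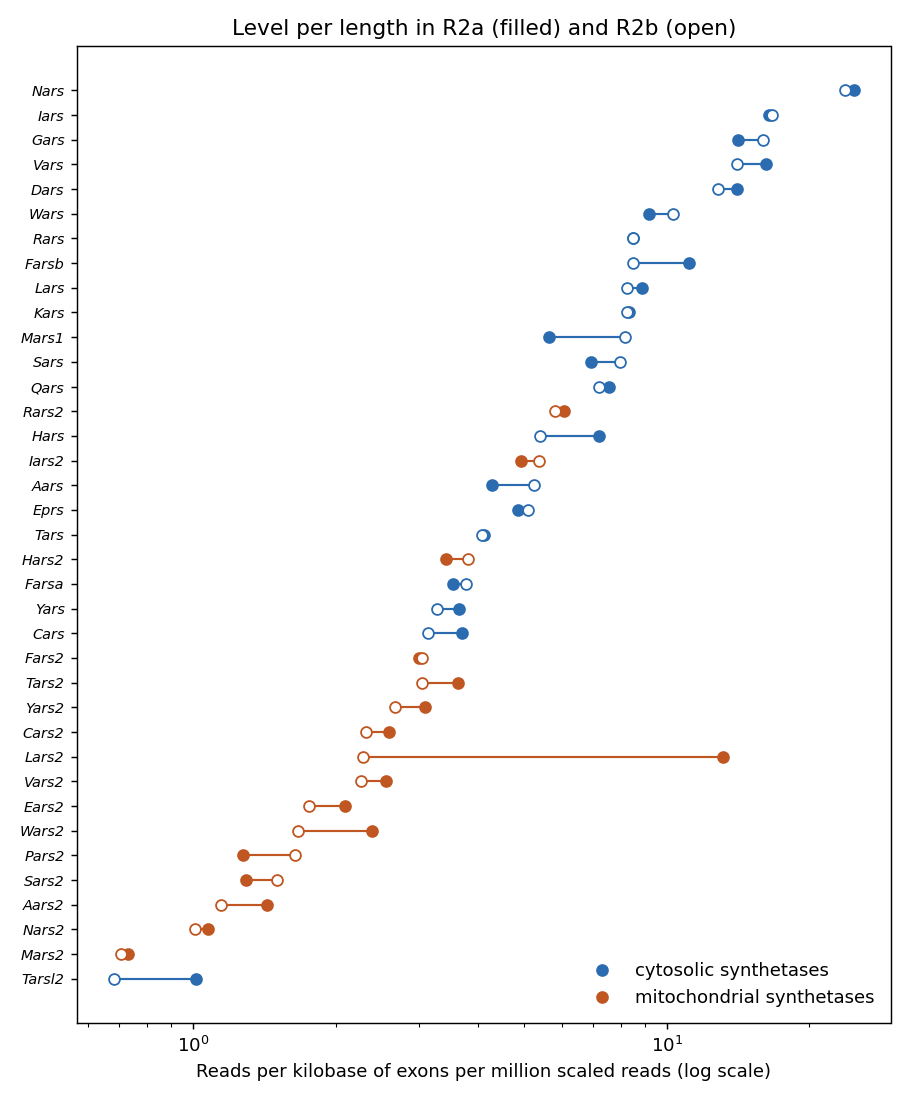
Level per length, in CPM per kilobase of exons on a log scale, of the 37 synthetase genes in R2a (filled) and R2b (open), ordered by the level in R2b; blue marks cytosolic and orange mitochondrial enzymes. Cytosolic genes fill most of the upper places, and the line that joins 2.28 to 13.2 for Lars2 is the longest.

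The plot of levels per length shows cytosolic genes mostly above mitochondrial ones. The median level per length was 7.56 in R2a and 8.15 in R2b for cytosolic genes, and 2.55 and 2.27 for the 15 mitochondrial genes without Lars2. Rars2, the arginyl enzyme, was the highest of those 15, at 6.06 and 5.80.

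For 16 amino acid pairs the mitochondrial gene was set against its cytosolic partner. Eprs served as the partner of both Ears2 and Pars2, so the pairs are not all separate. Farsa was used for Fars2, at 3.54 per length in R2a, and the other subunit gene, Farsb, stood at 11.2. The mitochondrial gene was lower per length in 15 of 16 pairs in R2a and in 16 of 16 in R2b, and in 13 and 15 pairs with the length of the longest transcript. With that length Fars2, Tars2 and Lars2 were above their partners in R2a, at 1.06, 1.17 and 3.14 times, and Fars2 in R2b, at 1.01 times. With joined exons Lars2 was the only exception in R2a, at 1.48 times the level of Lars, against 0.276 times in R2b. The R2a figure over the R2b figure was therefore 5.37 for the leucyl pair. For the other 15 pairs it ran from 0.676 for Hars2 over Hars to 1.60 for Wars2 over Wars, with a median of 1.04. Gene lengths cancel in this quantity. For the leucyl pair it restates the Lars2 ratio, for which the set was chosen, over the Lars ratio. Nothing is therefore read from its distance to the other pairs.

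**Figure D4:**
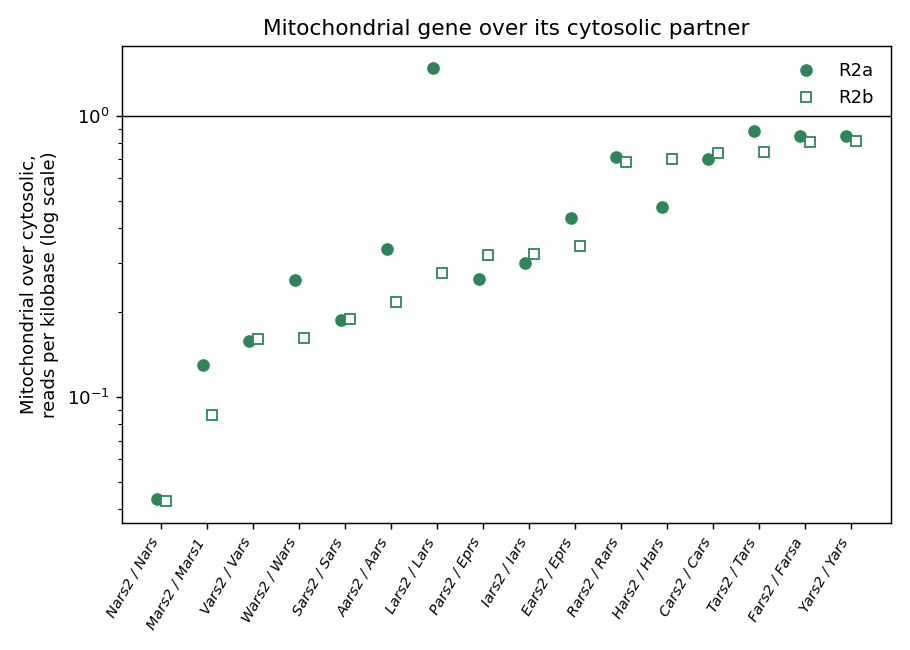
Level per length of each mitochondrial synthetase gene divided by that of its cytosolic partner, on a log scale, in R2a (filled circles) and R2b (open squares); the line marks equal levels. The pair of Lars2 and Lars crosses the line in R2a, at 1.48, and lies at 0.276 in R2b.

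The plot of pairs shows that the leucyl pair was in the middle of the order in R2b and at the top in R2a. The lowest pair in both libraries was Nars2 over Nars, at 0.0434 and 0.0426. Mars2 over Mars1 stood at 0.130 and 0.0864, and Wars2 over Wars at 0.260 and 0.162. Apart from the leucyl pair the highest were Tars2 over Tars (threonyl) at 0.880 in R2a and Yars2 over Yars (tyrosyl) at 0.815 in R2b.

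The transcript of Lars2 carries a stretch that other genes hold. Its coding transcript has 21 exons and 3894 bases, and no 75-base word, the length of a read, out of 11292 in its transcripts was found in a transcript of another gene. Only annotated transcripts were searched, and only for exact words, so reads aligned with mismatches are not covered. Within the 989 bases of the 3′ untranslated region of Lars2, in exon 21, the bases chr9:123461933-123462119 aligned to other transcripts over at least 50 bases at 90% identity or more. Gm15564, an antisense RNA gene of chromosome 16, matched 72 bases at 98.6% identity and had 29 reads against 17, a ratio of 3.27 with an interval of 1.74 to 6.34, and it was called higher. It was not called at a minimum of 5 CPM, with 2 CPM added or at a 4-fold size. AA474408 of chromosome 7 matched 97 bases at 94.8% and 50 bases at 96% and had 97 and 193 reads, a ratio of 0.964 with an interval of 0.747 to 1.24.

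This stretch is known, as background, to resemble the large ribosomal RNA, and the libraries were made with a step that reduces ribosomal RNA. The levels of genes that carry ribosomal or other abundant noncoding RNA are therefore given beside Lars2, in a list that also holds the pseudogene Gm10925. Gm26917 had 40455 CPM in R2a against 60487 CPM in R2b, 1.495 times lower in R2a. The mitochondrial ribosomal RNA genes mt-Rnr1 and mt-Rnr2 had log2 ratios of -0.10 and -0.08, and Rpph1, the RNA of ribonuclease P, 0.05. The pseudogene Gm10925 had 79 and 17 reads, a ratio of 8.91 with an interval of 5.23 to 16.1. Rn7s2, a gene of the signal recognition particle RNA, had 13 reads and 1 read, a ratio of 24.9 with an interval of 3.74 to 1059. Its copy Rn7s1 had 11 and 0 reads. Rmrp, the RNA of ribonuclease MRP, had 10 and 14 reads, and Gm26870 had 2 and 0. Of the 13 genes listed, 9 had reads and 6 were compared. Of those 6, 2 were called higher (Gm10925 and Rn7s2) and 0 lower, beside 1.93% and 1.84% of all genes compared. Nothing is read from these shares. Gm10925 lay just above Lars2, with log2 ratios of 2.510 and 2.506. Among the 14 genes above Lars2, 1 that is outside this list is annotated as ribosomal RNA. Rn7s2 was not called at a minimum of 5 CPM, with 2 CPM added or at a 4-fold size. The counts do not show where in Lars2 the reads lay, and the part of the shared stretch in its ratio was not tested. No separate sequence of the large ribosomal RNA was included in the search for shared words or in the alignments.

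Promoters were described with RefSeq windows of 250 bases before to 50 bases after each start on GRCm38.p6. Of the 37 genes, 28 had a window that was used. The other 9 were Cars, Hars, Hars2, Lars, Nars, Pars2, Rars, Vars and Wars, and the motif counts do not cover them. Hars, Hars2, Lars and Nars lie on the same chromosome, and windows of synthetase genes on that chromosome were left out by choice. The share over all windows was not filtered by chromosome. Motifs were searched on both strands. The ATF4 and CEBP composite element, TGATGNAA (TTNCATCA on the other strand), was in 3.97% of all 32851 windows, in 5 of 14 cytosolic genes (Aars, Gars, Iars, Tars and Yars) and in 0 of 14 mitochondrial genes. The NRF1 motif GCATGCGC was in 2.71% of all windows, in 0 of 14 cytosolic and in 3 of 14 mitochondrial genes (Rars2, Vars2 and Wars2). The GABPA motif CCGGAAGT was in 3.89% of all windows, in 2 cytosolic genes (Farsa and Mars1) and 1 mitochondrial gene (Rars2). The YY1 motif ATGGCGGC was in 2.24% of all windows, in 0 cytosolic and 3 mitochondrial genes (Lars2, Tars2 and Yars2). A match is a run of letters and not a measured binding site.

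Some of these windows are shown because they carry the matches counted above, each on the strand of its gene with the motif in capitals. The first 3 hold the ATF4 and CEBP element, the next 3 the NRF1 motif and the last 2 the GABPA motif.
Aars, chr8:111033714-111033753 plus: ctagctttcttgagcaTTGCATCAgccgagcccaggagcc
Gars, chr6:55037955-55037994 plus: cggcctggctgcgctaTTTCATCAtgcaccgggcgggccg
Tars, chr15:11399659-11399689 minus: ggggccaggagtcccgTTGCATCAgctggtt
Rars2, chr4:34614890-34614929 plus: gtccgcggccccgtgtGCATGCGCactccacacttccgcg
Vars2, chr17:35667615-35667654 minus: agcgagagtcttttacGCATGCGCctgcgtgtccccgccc
Wars2, chr3:99141010-99141049 plus: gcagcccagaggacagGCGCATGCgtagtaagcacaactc
Farsa, chr8:84856947-84856985 plus: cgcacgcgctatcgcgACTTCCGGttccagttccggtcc
Mars1, chr10:127311793-127311832 minus: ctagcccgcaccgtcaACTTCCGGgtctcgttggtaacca
The log2 ratios of the genes with the ATF4 and CEBP element were -0.29 for Aars, -0.18 for Gars, -0.02 for Iars, 0.02 for Tars and 0.15 for Yars, so they lay on both sides of 0.

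Lists of related genes gave 0 calls in either direction for most steps around the synthetases. Over all genes compared, 1.93% were called higher and 1.84% lower. With lists this short, nothing is read from the counts of calls here or in the lists below. Of 10 accessory genes of tRNA charging, 0 were called and the median log2 ratio was 0.07. Pstk, the kinase that acts on seryl-tRNA of selenocysteine, had the highest ratio there, with 8.49 and 5.29 CPM and a ratio of 1.61 (interval 1.22 to 2.10). Of 17 genes of mitochondrial tRNA maturation, 0 were called. Qtrt1, a subunit of the enzyme that places queuine in tRNA, had 62 and 60 reads, a ratio of 1.98 with an interval of 1.37 to 2.87, and it was called higher with R2b thinned to the total of R2a and at a 1.5-fold size. Trmt10c, a subunit of mitochondrial ribonuclease P, had 7.25 and 10.7 CPM, 1.48 times lower in R2a with an interval of 1.16 to 1.91, and the pseudouridine synthase gene Pus1 was 1.49 times lower, with an interval of 1.14 to 1.98.

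Of 16 mitochondrial translation factors, 0 were called, with a median log2 ratio of 0.10. Oxa1l, which inserts new proteins into the inner membrane, had 43.7 and 35.9 CPM, a ratio of 1.22 with an interval of 1.09 to 1.36. Of 77 mitochondrial ribosomal protein genes, 0 were called, beside 1.93% of all genes compared called higher and 1.84% lower. The median of the 77 was -0.02, with Mrpl27 at 0.69 and Mrps27 at -0.63. Of 11 cytosolic elongation and initiation genes, 0 were called, and the median was -0.06. Of 22 mitochondrial tRNA genes, only the proline tRNA mt-Tp had reads, 566 and 961. The leucine tRNAs mt-Tl1 and mt-Tl2, the substrates of the Lars2 product, were at 0 in both libraries. With reads on 1 of 22 such genes, the zeros are not read as absence of these tRNAs. Whether the libraries could capture tRNAs was not tested.

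The amino acid response list had 21 genes compared, of which 1 was called higher and 0 lower, beside 1.93% and 1.84% of all genes compared. Its median log2 ratio was -0.10. Slc7a11, the cystine carrier, was the called gene, with 23 and 14 reads and a ratio of 3.15 (interval 1.55 to 6.62), and it was not called at a minimum of 5 CPM, with 2 CPM added, at a 4-fold size or with R2b thinned to the total of R2a. Atf4 itself stood at 81.0 and 84.8 CPM. Cebpb, which encodes a partner of ATF4, had 87.2 and 164 CPM, 1.88 times lower in R2a with an interval of 1.76 to 2.02, and Atf3 and Sesn2 had log2 ratios of -0.63 and -0.51. Ddit4, an inhibitor of mTORC1 signalling, lay the other way, with 93.4 and 71.5 CPM and a ratio of 1.31 (interval 1.21 to 1.41).

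Wars, the cytosolic tryptophanyl enzyme, is known to be induced by interferon gamma, and it stood at 31.6 and 35.5 CPM, with an interval of 0.788 to 1.01 for its ratio. Of 14 other genes of the interferon gamma response, 2 were called higher and 0 lower, beside 1.93% and 1.84% of all genes compared. The 2 called were Gbp4, a guanylate-binding protein gene, at 32.7 and 12.2 CPM (ratio 2.67, interval 2.29 to 3.12), and the chemokine gene Cxcl9 at 54.5 and 26.3 CPM (ratio 2.08, interval 1.86 to 2.32). Neither was called at a 4-fold size.

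**Figure D5:**
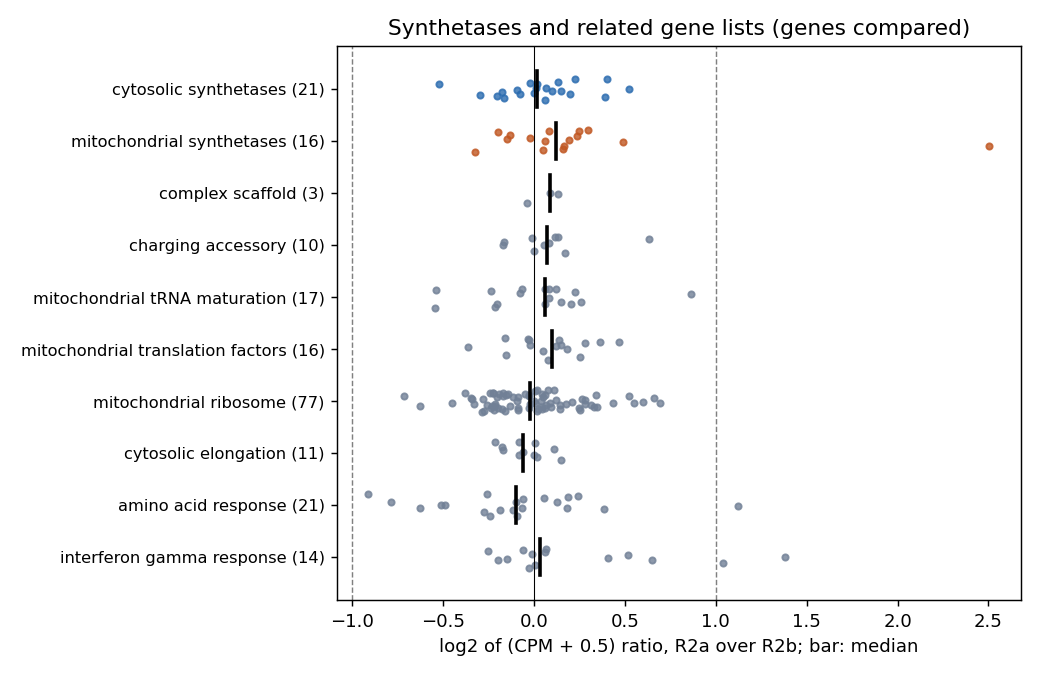
Log2 ratio of CPM plus 0.5, R2a over R2b, for the genes compared in 10 lists, with the number of genes in brackets, the median of each list as a black bar and dashed lines at a log2 ratio of 1 in either direction; points are spread vertically for sight only. List medians lie between -0.10 and 0.12, and Lars2 is the point at 2.51.

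The plot of lists shows Lars2 beyond every other gene drawn there, the next being Gbp4 at 1.38, Slc7a11 at 1.12 and Cxcl9 at 1.04.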

How the data were processed

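RNA of 2 sorted kidney macrophage populations was sequenced as paired ends of 75 bases, with 1 library of pooled mice each. The authors deposited whole-number counts per gene from HTSeq 0.9.1, after base calling with bcl2fastq 2.18.0.12 and alignment to GRCm38 with STAR 2.5.3, per the submitters' processing notes. Not given in the sources used here: annotation release, strandedness, count mode. Summary rows of the counter stayed out of totals, which left 47.9% of the table's sum for R2a and 50.3% for R2b.

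Counts were scaled by TMM (edgeR 4.0.16, R 4.3.3) to CPM. Log2 ratios used CPM plus 0.5, folds are CPM ratios, and intervals are exact 95% Clopper-Pearson intervals of the split of reads between the libraries (scipy 1.17.1) or exact Poisson intervals. Reads copied by PCR and lacking molecular identifiers are not independent, so every interval covers counting error only. A count of 0 allows up to 3 counts, 0.247 CPM in R2a and 0.129 CPM in R2b. Symbols, exon lengths and overlaps came from GENCODE M21 on GRCm38: 30 of the 37 identifiers matched with their version and 7 without. Transcripts were aligned with blastn 2.17.0+. The code that makes the calls was run on simulated counts with known folds, which checks the code and not the difference between the populations.

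The members and lists were chosen with earlier results of these data known. Any of the 37 members could be named, with values for Lars2, the 5 highest and 5 lowest ratios among genes with at least 5 CPM in one library, the 5 highest and 5 lowest levels per length and their pair partners, and up to 4 genes of each other list with the widest ratios at that level, and every listed ribosomal or noncoding RNA gene with reads. Values of other members, Atf4, Ddit3, Slc7a11, the leucine tRNAs and genes that share exons or sequence with a member were added for their role, call or overlap after their values were seen. With 1 library per population no test was possible. DESeq2 1.42.0 gave size factors for an alternative scaling only.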

Additional observations from a re-analysis of the deposited data

Results flagged for a closer look

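Reads outside the gene counts were flagged because no comparison used them. Reads in no annotated gene were 41.2% of the table's sum for R2a and 38.9% for R2b. Reads that more than 1 gene could claim were 2.42% and 2.51%, and reads with several alignments were 8.5% and 8.33%. The counts do not give the genes these reads came from, and their part in the ratios of the synthetase genes was not tested.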

How the results depend on the processing

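Under 11 alternatives of scaling, added value, level minimum, thinning and size of a call, 1 synthetase gene was called higher and 0 lower. The log2 ratio of Lars2 ran from 2.44 to 2.58, and under the 7 alternatives that change ratios all 37 ratios stayed within their counting intervals, with a largest shift of 0.20. Scaling by total counts moved the median of all genes to 0.07 and gave 377 genes higher and 240 lower, a share of 61.1% higher. The calls among all genes, 301 higher and 287 lower, became 493 and 462 with 0.1 CPM added, 82 and 78 with 2 CPM added, 92 and 97 at a minimum of 5 CPM, 869 and 903 at 1.5-fold and 41 and 16 at 4-fold. Leaving Lars2 out, an alternative chosen after seeing the data, gave a mitochondrial median of 0.08 in place of 0.12. No paired analysis was possible because each population had 1 library. Precision is limited by 48 to 2409 reads per synthetase gene, and the spread between animals is unknown.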
